A study of Mus musculus with 6 samples.

Results

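The SMAD proteins and the genes that restrain them were compared between microglia in plain serum-free medium and microglia under the optimized conditions of the study. The 10 genes were chosen by symbol out of 41079 genes listed: the receptor SMADs Smad2 and Smad3, the common SMAD Smad4, the inhibitory SMADs Smad6 and Smad7, the co-repressors Ski and Skil, the ubiquitin ligases Smurf1 and Smurf2, and Pmepa1. All 10 were found, and all 10 were among the 14618 genes with enough counts to test. They were named with earlier results of these data known.

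Total RNA was sequenced from microglia of C57Bl/6N mouse brains, taken at an age of 1 to 3 days, in 3 control and 3 optimized libraries. Control cells were kept in serum-free DMEM/F12. Optimized cells received human TGF-β1, IL-34 and CX3CL1 at 100 ng/mL each. The methods of the study add cholesterol and insulin-transferrin-selenium, with collagen IV as the coating, which the labels do not name. The supplements were always given together, so their effects cannot be told apart. Both groups came from mixed glial flasks fed with L-929 conditioned medium, which supplies M-CSF, and were shaken off; brains were pooled per flask, and both groups met serum briefly while attaching. The study's shaking protocol keeps the mixed flasks for weeks and collects microglia from them repeatedly. Which harvest each library came from, and the time in culture between shaking and RNA isolation, were not given for these libraries in the sources used here. The study calls its samples independent biological replicates, and the labels do not name separate cultures, so p-values measure the spread between these libraries, which may be technical in part.

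TGF-β binds a pair of kinase receptors, which phosphorylate SMAD2 and SMAD3. These join SMAD4, enter the nucleus and act on target genes, and SMAD7, SMAD6, SKI, SKIL, the SMURFs and PMEPA1 each limit the signal at a different step. In the brain, TGF-β is known as one of the cues that keep microglia in their homeostatic state.

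The libraries held between 20628148 and 27261839 counts. The 7 microglial markers checked summed to between 5876 and 5973 CPM in control and between 10301 and 12021 CPM in optimized libraries, where CPM is the count scaled to a fixed library total with TMM factors. Markers of neurons, astrocytes, oligodendrocytes and endothelial cells summed to at most 189 CPM in any library and type. Fibroblast markers lay between 31.8 and 45.7 CPM in control and between 28.6 and 146 CPM in optimized libraries, the highest in optimized library 3. The joint list of pericyte and oligodendrocyte precursor genes summed to 30.8 to 43.1 CPM in control and 437 to 624 CPM in optimized libraries, but 1 gene, Cspg4, of the 3 tested was called higher. Cspg4 had 663 to 903 counts in control and 9895 to 13044 counts in optimized libraries, while Pdgfra had 63 to 85 and 56 to 89 counts, Pdgfrb had 18 to 30 and 7 to 48 counts, and the defining pericyte genes Rgs5 and Kcnj8 had at most 37 counts in any library. The part of these cells in the values below was not tested, and a change in cell make-up and a change of RNA per cell cannot be told apart in such bulk samples.

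Of the 10 genes, 7 rose, 1 fell and 2 did not pass the threshold of 0.05 on the adjusted p-value (quasi-likelihood test of edgeR, adjusted after Benjamini and Hochberg over all genes tested). Across all 14618 genes, 14.7% passed in the higher and 15.2% in the lower direction, 29.8% in all. Of all the calls, 49.1% were higher genes, against 32.3% under scaling by library size alone and 28.4% to 33.1% with limma on FPKM values. Library size alone moved the median change of all genes by -0.13 on the log2 scale. The median log2 fold change (log2FC, optimized against control) of the 10 genes was 1.07, beside 0.01 over all genes tested. The order of change followed the roles: Pmepa1 and the inhibitory SMADs had the largest increases, the SKI genes came next, the SMURFs moved little, and the signal-carrying SMADs lay between -0.55 and -0.03.

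**Figure D1:**
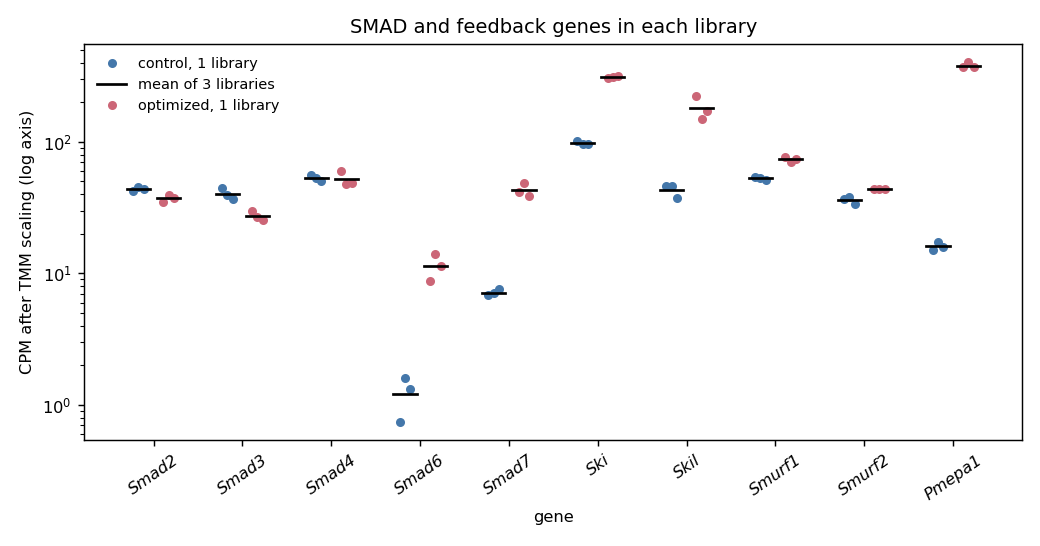
Expression of the 10 genes in each library, as CPM after TMM scaling on a log axis, with 1 point per library and a bar at the mean of 3. Pmepa1 sits between 15 and 17.3 CPM in control and between 367 and 404 CPM in optimized libraries, while the points of Smad4 overlap between the conditions.

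Promoter sequences of some of the genes were read for short motifs, and a link between these motifs and the changes was not tested. RefSeq promoters of 300 bases, from 250 bases before to 50 bases after the annotated start on build GRCm38.p6, were at hand for 5 of the 10 genes, and 3 are shown: those of Smad6 and Ski, which rose, and of Smad3, which fell. All 3 are on the minus strand, written 5′ to 3′ along the gene, with capitals for each AGAC or its reverse complement GTCT, the core of the SMAD binding element, and for GTCTAGAC, a palindrome of both.

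Smad6, chr9:64022010-64022309: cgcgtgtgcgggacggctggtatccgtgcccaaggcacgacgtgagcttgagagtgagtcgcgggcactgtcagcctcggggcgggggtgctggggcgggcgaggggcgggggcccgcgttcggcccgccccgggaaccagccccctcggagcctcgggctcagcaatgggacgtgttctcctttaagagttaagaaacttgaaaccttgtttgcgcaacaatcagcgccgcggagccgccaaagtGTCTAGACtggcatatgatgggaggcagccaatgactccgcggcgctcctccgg
Ski, chr4:155222486-155222785: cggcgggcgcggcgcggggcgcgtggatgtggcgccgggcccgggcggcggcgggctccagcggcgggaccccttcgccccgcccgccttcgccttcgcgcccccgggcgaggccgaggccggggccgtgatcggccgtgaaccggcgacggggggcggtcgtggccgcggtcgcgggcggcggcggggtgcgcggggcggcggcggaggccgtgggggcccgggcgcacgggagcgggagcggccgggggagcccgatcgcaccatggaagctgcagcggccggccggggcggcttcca
Smad3, chr9:63757945-63758244: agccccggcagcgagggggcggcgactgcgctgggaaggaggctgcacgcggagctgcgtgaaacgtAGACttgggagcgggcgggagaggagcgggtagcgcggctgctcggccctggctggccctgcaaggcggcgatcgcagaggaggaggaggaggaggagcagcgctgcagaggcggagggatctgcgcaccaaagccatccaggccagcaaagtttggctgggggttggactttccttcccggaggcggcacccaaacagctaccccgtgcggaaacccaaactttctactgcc

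The Smad6 promoter holds GTCTAGAC once, with its first base 4 bases before the annotated start. Of 32851 RefSeq promoters of the same length, 70 hold this palindrome, or 0.213%. The palindrome accounts for both AGAC matches of Smad6, since GTCT and AGAC lie side by side in it, and it spans the annotated start. Smad3 holds AGAC once, Ski holds none, Smurf1 holds 3 and Smurf2 holds 4, while 88% of all promoters hold at least 1. GGCGCC, a GC-rich sequence that SMAD3 and SMAD4 can also bind, is present once in the Ski promoter, 2 times in that of Smurf2, in none of the other 3, and in 11.9% of all promoters. These matches describe the letters of the windows and are not evidence of binding, and the promoters of Smad2, Smad4, Smad7, Skil and Pmepa1 are not shown.

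SMAD2 and SMAD3 carry the signal from the TGF-β receptors to the nucleus. Smad3, on chromosome 9 of GRCm39 from 63554049 to 63665476, had 44.2, 39.4 and 37.0 CPM in control libraries 1 to 3 and 29.8, 26.8 and 25.6 CPM in optimized libraries 1 to 3. Every optimized library was below every control library, and Smad3 fell to 0.681 of its control level, with log2FC -0.55 ± 0.10 (SE) and adjusted p = 0.0026 (edgeR). Smad2, on chromosome 18 from 76374327 to 76445180, had 41.9, 45.4 and 43.8 CPM in control and 34.7, 39.4 and 37.3 CPM in optimized libraries. These ranges did not overlap either, but its log2FC of -0.24 ± 0.09 (SE, unadjusted 95% interval -0.43 to -0.04) missed the threshold at adjusted p = 0.074 (edgeR). With library size alone the log2FC was -0.37 (adjusted p = 0.011, edgeR), and without optimized replicate 2 it was -0.29 (adjusted p = 0.048).

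SMAD4 is the partner shared by the TGF-β and BMP branches. Smad4, on chromosome 18 from 73769343 to 73836915, had 56.2, 53.4 and 50.2 CPM in control and 59.6, 48.0 and 48.7 CPM in optimized libraries. The libraries overlapped between the conditions, and optimized library 1 was the highest of all 6. The log2FC of Smad4 was -0.03, with an unadjusted 95% interval from -0.27 to 0.20 (adjusted p = 0.86, edgeR). A change of either direction within that interval remains compatible with these libraries.

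The inhibitory SMADs block the pathway from within, SMAD7 by competing for the TGF-β receptors and bringing ubiquitin ligases to them, and SMAD6 mainly in the BMP branch. Smad7, on chromosome 18 from 75500374 to 75529006, had 6.82, 7.06 and 7.54 CPM in control and 41.2, 48.4 and 38.8 CPM in optimized libraries. The groups were far apart, and Smad7 rose 5.99-fold (log2FC 2.58 ± 0.12 SE, adjusted p = 3.0e-07, edgeR). Smad6, on chromosome 9 from 63860341 to 63929793, was the gene with the fewest counts, 17, 39 and 36 in control and 185, 331 and 236 in optimized libraries. That equals 0.743, 1.59 and 1.32 CPM in control and 8.76, 14.1 and 11.4 CPM in optimized libraries, again without overlap. Its 9.29-fold rise (log2FC 3.22 ± 0.27 SE, adjusted p = 1.4e-05, edgeR) carried the widest error of the 10 genes. On the log2(FPKM + 1) scale, where the pseudocount shrinks low genes, limma gave a difference of 1.66 for Smad6.

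SKI and SKIL, also called SnoN, bind SMAD complexes on DNA and recruit co-repressors. Ski, on chromosome 4 from 155238532 to 155307543, had 101, 96.0 and 96.5 CPM in control and 308, 311 and 317 CPM in optimized libraries. The optimized libraries lay close together, and Ski rose 3.19-fold (log2FC 1.67 ± 0.08 SE, adjusted p = 3.5e-07, edgeR). Skil, on chromosome 3 from 31148816 to 31176740, had 46.5, 45.7 and 37.4 CPM in control and 222, 149 and 170 CPM in optimized libraries. Optimized library 1 was well above the other optimized libraries, yet each was above every control library. Skil rose 4.18-fold (log2FC 2.06 ± 0.15 SE, adjusted p = 5.8e-06, edgeR), and without optimized replicate 1 the value was 1.89.

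SMURF1 and SMURF2 are HECT-type ubiquitin ligases that bind SMADs and mark SMADs and receptors for degradation. Smurf1, on chromosome 5 from 144813300 to 144902866, had 54.3, 53.4 and 51.6 CPM in control and 76.3, 70.4 and 73.9 CPM in optimized libraries. It rose 1.39-fold (log2FC 0.47 ± 0.08 SE, adjusted p = 0.0014, edgeR), though limma on log2(FPKM + 1) placed its adjusted p-value at 0.054. Smurf2, on chromosome 11 from 106710889 to 106811583, had 36.4, 38.0 and 33.5 CPM in control and 43.5, 43.6 and 43.8 CPM in optimized libraries. The groups did not overlap, and the log2FC was 0.28 ± 0.09 (SE, adjusted p = 0.035, edgeR). This call is a weak one: with library size alone the log2FC was 0.15 (adjusted p = 0.33, edgeR). It was also lost without any 1 of control replicates 1, 2 or 3 or optimized replicates 2 or 3, with log2FC values of 0.28, 0.32, 0.22, 0.27 and 0.28. Smurf2 shares 935 bases of exons with Cep95 on the opposite strand, whose mean count was 51.4% of that of Smurf2, and as no strand setting is stated, reads of the 2 genes may not have been told apart. None of the other 9 genes shared exon bases with another listed gene.

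PMEPA1 is a membrane protein that holds back receptor SMADs and is itself a target gene of the pathway. Pmepa1, on chromosome 2 from 173066251 to 173118444, had 15, 17.3 and 16.0 CPM in control and 367, 404 and 368 CPM in optimized libraries. The 23.6-fold rise placed it 30th from the top of the 14618 genes ranked by log2FC (4.56 ± 0.10 SE, adjusted p = 1.3e-08, edgeR). In the same ranking Smad6 was 83rd, Smad7 151st, Skil 241st and Ski 386th.

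**Figure D2:**
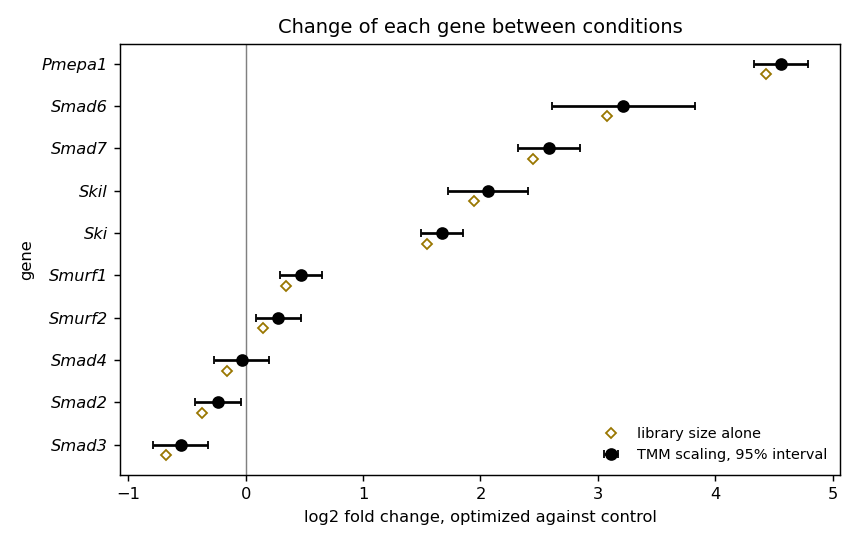
Log2 fold change of each gene, optimized against control, with its unadjusted 95% interval under TMM scaling (black) and its value with library size alone (open diamonds). The 5 upper genes lie at 1.67 or more, and the diamonds sit slightly to the left for each gene, which takes Smurf2 from 0.28 to 0.15 and Smad2 from -0.24 to -0.37.

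In every optimized library, 7 of the 10 genes were above and 2 were below all control libraries. Over all genes tested, 21.4% were separated in this way upward and 22.5% downward.

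Levels were compared between genes as FPKM, the deposited values per length of gene. The lengths used are not stated. Counts and FPKM imply 4.78 kb for Pmepa1 and 14.5 kb for Smad2, against 7452 and 11250 exon bases in GENCODE. The order of genes below, also where neighbours do not overlap, rests on the lengths used and was not checked with others. The same holds for the summed share of Pmepa1, Ski and Skil. In control libraries Ski was the highest at 16.6 ± 0.894 FPKM (SD, n = 3) and Smurf1 second at 9.94 ± 0.603 FPKM (SD, n = 3). Smad3, Smad4, Smurf2 and Skil followed with means between 6.59 and 7.40 FPKM, and neighbours in that order overlapped. Pmepa1 was seventh at 3.51 ± 0.294 FPKM, above Smad2 at 3.13 ± 0.171 FPKM, Smad7 at 1.63 ± 0.036 FPKM and Smad6 at 0.411 ± 0.148 FPKM (SD, n = 3 each), with no overlap between neighbours. In optimized libraries the order was headed by Pmepa1 at 75.1 ± 1.22 FPKM, Ski at 47.9 ± 2.06 FPKM and Skil at 25 ± 6.09 FPKM (SD, n = 3 each). Smurf1 (12.5 FPKM), Smad7 (8.86 FPKM), Smurf2 (7.39 FPKM), Smad4 (6.32 FPKM), Smad3 (4.58 FPKM), Smad6 (3.49 FPKM) and Smad2 (2.41 FPKM) came after them, and of these neighbours only Smurf2 and Smad4 overlapped. Smad7 thus moved from below both receptor SMADs to above both in mean FPKM. Pmepa1, Ski and Skil together made up 42.3% ± 0.0588 of the summed FPKM of the 10 genes in control and 76.5% ± 0.295 in optimized libraries (SD, n = 3 each).

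Among the 5 SMADs alone, Smad6 and Smad7 together made up 8.87%, 10.9% and 11.5% of the summed FPKM in control libraries 1 to 3 and 43.8%, 52.8% and 47.9% in optimized libraries 1 to 3. The inhibitory share was thus higher in each optimized library, by 37.7 percentage points on average. An exact two-sided permutation test gave p = 0.1, the smallest that 3 libraries against 3 allow. The sum over the 5 SMADs went from 19.7 ± 1.47 to 25.7 ± 1.06 FPKM (SD, n = 3 each), also without overlap. Smad3 had the largest drop in share, from 37.5% to 17.8%, and Smad7 the largest gain, from 8.33% to 34.5%. With counts per GENCODE exon length in place of the deposited FPKM, an alternative added after the data were seen, the inhibitory share went from 9.26% to 44.5%.

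**Figure D3:**
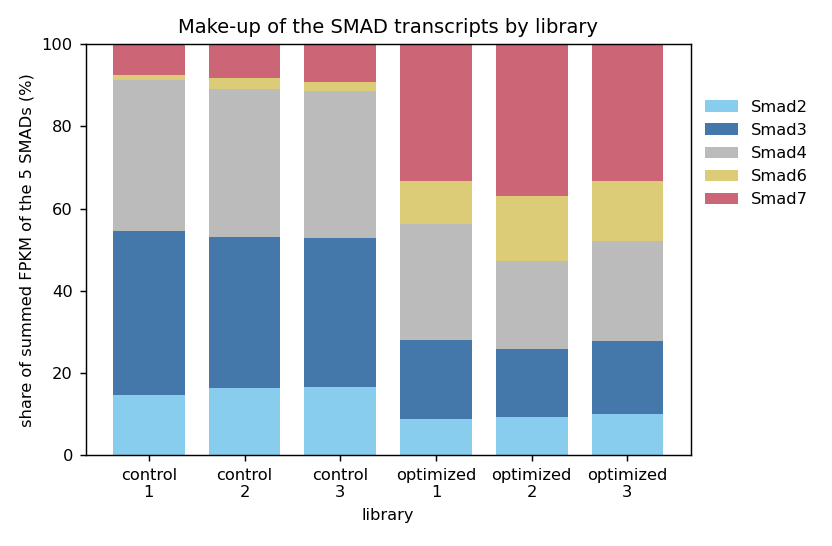
Share of each SMAD in the summed FPKM of Smad2, Smad3, Smad4, Smad6 and Smad7, in percent, as 1 stacked bar per library. The 2 upper segments, Smad6 and Smad7, take 8.87% to 11.5% of the bar in control and 43.8% to 52.8% in optimized libraries.

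Ratios within a library do not depend on the scaling between libraries, and 6 of them were compared. Their levels rest on the lengths used for FPKM. The ratio of Smad6 plus Smad7 to Smad2 plus Smad3 was 0.163, 0.205 and 0.218 in control and 1.56, 2.04 and 1.73 in optimized libraries, a 9.10-fold difference. With counts not divided by length, Smad6 plus Smad7 stayed below Smad2 plus Smad3 in every optimized library. The ratio of Ski plus Skil to Smad4 was 3.23, 3.26 and 3.29 in control and 10.8, 11.8 and 12.3 in optimized libraries, a 3.56-fold difference. Both were separated without overlap, with p = 0.1 in the exact two-sided permutation test and 0.15 after Benjamini-Hochberg adjustment over the 6 ratios, so no ratio could pass the threshold in this design.

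Ratios between paralogs moved less. Skil against Ski went from 0.414, 0.428 and 0.349 to 0.648, 0.431 and 0.483, and although the groups did not overlap, control library 2 and optimized library 2 differed by little. Without optimized replicate 1 the log2 difference of Skil against Ski was 0.21 in place of 0.38. Smurf1 against Smurf2 went from 1.5, 1.41 and 1.55 to 1.76, 1.62 and 1.69, also without overlap (exact permutation p = 0.1 for both). Smad3 against Smad2 was 2.71, 2.22 and 2.17 in control and 2.20, 1.74 and 1.76 in optimized libraries. Smad7 against Smad6 was 6.21, 3.00 and 3.87 in control and 3.18, 2.32 and 2.30 in optimized libraries. These 2 ratios overlapped between the conditions, with p = 0.2 each in the exact permutation test, so a difference within the pairs was not resolved. The log2 difference of Smad7 against Smad6 was -0.70, and -0.41 without control replicate 1.

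**Figure D4:**
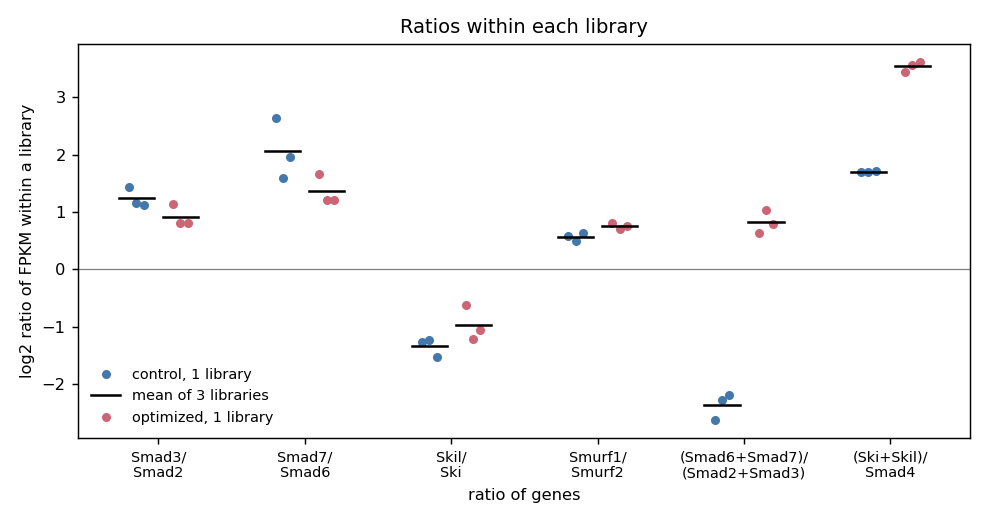
Log2 ratio of FPKM within each library for 6 ratios of the genes, with 1 point per library and a bar at the mean of 3. The inhibitory against receptor SMADs change sides of 0 in FPKM, from a mean of -2.37 in control to 0.82 in optimized libraries, which rests on the lengths used. Smad3/Smad2 and Smad7/Smad6 overlap between the conditions.

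The genes with the profile most like that of Pmepa1 were sought among 10483 genes with a mean of at least 5 CPM, by the root mean square difference of log2 CPM, centred on the control mean, over the 6 libraries. They were Olfml3, a microglial signature gene (0.14), Ache, which encodes acetylcholinesterase (0.23), and Chst1, a sulfotransferase gene (0.24). Ache, at a mean of 0.565 CPM in control and 14.9 CPM in optimized libraries, reached the minimum through its optimized level. For Smad3, the gene with the lowest log2 fold change of the 10, they were Ap2a2, an adaptor subunit of clathrin-coated vesicles (0.05), Cyb5b, which encodes a cytochrome b5 of the outer mitochondrial membrane (0.06), and Zfp710 (0.06).

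Around these 10 genes, 65 further genes of the pathway were listed by role, and 62 were tested, of which 19 rose and 9 fell by edgeR, or 45.2% called, beside 29.8% of all genes tested (14.7% higher and 15.2% lower). Of the 14 ligand, latency and receptor genes, 13 were tested, 5 rose and 3 fell, with a median log2FC of 0.30, beside 14.7% higher and 15.2% lower over all genes. Tgfbr1, the type I receptor that phosphorylates SMAD2 and SMAD3, had 121, 122 and 109 CPM in control and 511, 381 and 406 CPM in optimized libraries, a log2FC of 1.89 ± 0.12 (SE). Nrros, which holds latent TGF-β1 on microglia, fell from 264, 266 and 283 CPM to 84.6, 102 and 99.9 CPM, a log2FC of -1.51 ± 0.10 (SE). Tgfb1 itself fell (log2FC -0.59). Ltbp2, which encodes a matrix protein of the latent TGF-β binding family, rose by 1.95 on the log2 scale from a mean of 0.775 to 3.02 CPM, but its adjusted p-value was above 0.05 without any 1 of control replicates 1, 2 or 3 or optimized replicate 3 (0.057, 0.11, 0.055 and 0.13 by edgeR). Without optimized replicate 3, in which fibroblast markers were highest, the log2FC of Ltbp2 was 1.17. The count of calls in this list was 5 in place of 8 without control replicate 3 and without optimized replicate 3.

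In the BMP branch, Smad1 fell from a control level of 22.6 ± 1.16 CPM to one of 16.4 ± 1.04 CPM (SD, n = 3 each; log2FC -0.46, adjusted p = 0.0062, edgeR). Smad5 overlapped between the conditions (log2FC 0.14), its direction turned in some alternatives, and Smad9 had at most 3 counts in a library and was not tested.

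The other ubiquitin ligases and deubiquitinases of the pathway had a median log2FC of 0.06, and 1 of 12 was called, beside 29.8% of all genes tested. Wwp1, a HECT-type ligase related to the SMURFs, had a log2FC of -0.30 (adjusted p = 0.044, edgeR), a call lost without any 1 of control replicates 1 or 2 or optimized replicates 2 or 3 (adjusted p = 0.14, 0.15, 0.099 and 0.14). Without optimized replicate 1, 2 genes of this list were called. Usp4, a deubiquitinase of the type I receptor, had -0.17, and Usp9x, which acts on SMAD4, had 0.17. Usp11 was the highest at 0.44, and Usp4, Usp9x and Usp11 did not pass the threshold. Usp4 passed it with library size alone (-0.30, adjusted p = 0.040, edgeR) and with limma at the minimum FPKM (-0.30, adjusted p = 0.038).

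Of 16 further inhibitors, phosphatases and adaptors, 3 rose and 2 fell, a share near the 29.8% called over all genes, with a median of -0.06. Bambi, a decoy receptor without a kinase domain, had 11.9, 12.1 and 13.6 CPM in control and 60.0, 77.7 and 67.9 CPM in optimized libraries, a log2FC of 2.45 ± 0.12 (SE, adjusted p = 4.5e-07, edgeR). Ldlrad4, the closest relative of Pmepa1, had 32.6, 28.2 and 25.1 CPM in control and 87.0, 67.7 and 74.5 CPM in optimized libraries, a log2FC of 1.42 ± 0.13 (SE). Both were separated without overlap, as was Sik1, a kinase gene induced by TGF-β in other cells, which fell (log2FC -0.73). Ctdsp2, which encodes a phosphatase of the SMAD linker region, had -0.29, and its call was lost without any 1 of control replicates 1 or 2 or optimized replicate 3 (adjusted p = 0.084, 0.078 and 0.098 by edgeR).

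Of 8 tested genes of SMAD co-activators and of the co-repressors that SKI recruits, 3 rose by edgeR and 5 did not pass the threshold, with a median of 0.16, beside 14.7% of all genes called higher. Runx3, a DNA-binding partner of SMADs, had a log2FC of 1.09 at a mean of 1.85 CPM in control and 3.93 CPM in optimized libraries. Crebbp, a histone acetyltransferase gene, had 66.6, 64.0 and 61.6 CPM in control and 138, 96.2 and 93.3 CPM in optimized libraries, a log2FC of 0.77, with optimized library 1 standing above the others. The call of Crebbp was lost with limma on log2(FPKM + 1) and on log2(FPKM + 0.1) (adjusted p = 0.094 and 0.075), and that of Runx3 with limma on log2(FPKM + 0.1) (adjusted p = 0.066). Hdac1, at -0.25, and Ep300, at 0.02, did not pass the threshold. Hdac1 was called lower with library size alone (-0.38, adjusted p = 0.012, edgeR) and in the 3 limma settings (adjusted p = 0.012 to 0.022). The direction of Ep300 was not the same in every alternative.

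The 11 textbook target genes of SMAD complexes had a median log2FC of 1.11, beside 0.01 over all genes tested. By edgeR, 8 were higher and 2 lower, beside 14.7% higher and 15.2% lower over all genes. The count of calls in this list was 7 with limma on log2(FPKM + 1) and on log2(FPKM + 0.1), and 8 with the minimum FPKM. It was 8 to 10 when 1 library was left out. Tgfbi, named for its induction by TGF-β, had 42.3, 44.3 and 43.1 CPM in control and 347, 322 and 430 CPM in optimized libraries, a log2FC of 3.08 ± 0.12 (SE). Id1, which encodes an inhibitor of basic helix-loop-helix factors, had 1.66, 2.12 and 1.87 CPM in control and 6.87, 10.9 and 12.5 CPM in optimized libraries, a log2FC of 2.41 ± 0.24 (SE). The cell cycle inhibitors Cdkn1a and Cdkn2b, which TGF-β raises in epithelial cells, went the other way. Cdkn1a fell (log2FC -1.10 ± 0.11 SE) and so did Cdkn2b (log2FC -0.92 ± 0.19 SE), each with every optimized library below every control library.

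**Figure D5:**
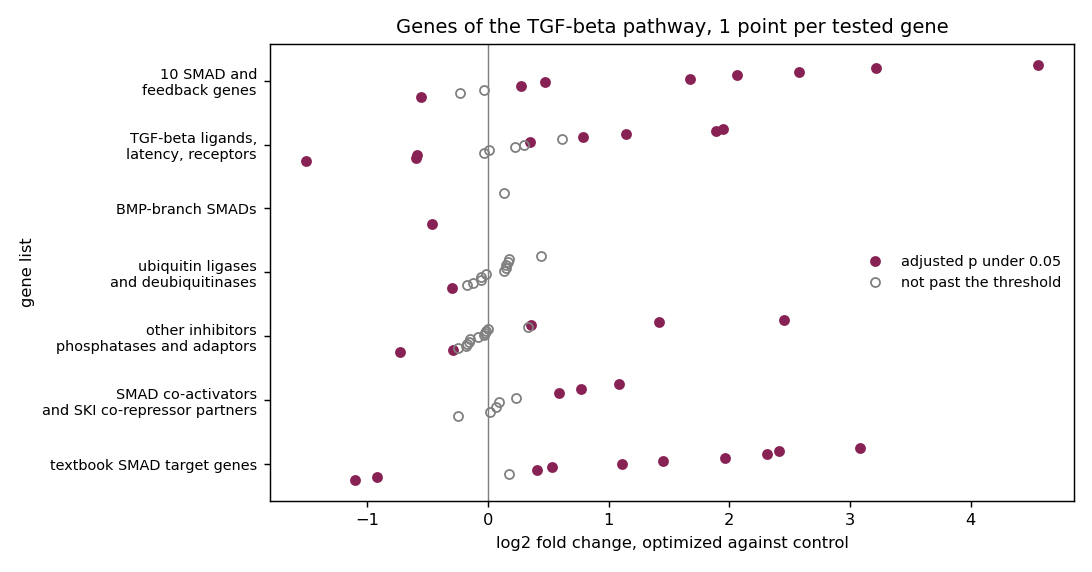
Log2 fold change, optimized against control, of each tested gene of the 10 and of the 6 pathway lists, with filled points for an adjusted p-value under 0.05 and open points for the rest. Target genes reach from -1.10 to 3.08, while the ubiquitin ligases and deubiquitinases stay between -0.30 and 0.44.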

How the data were processed

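Per the study's methods, HISAT2 placed the paired reads on mm39, the UCSC name of GRCm39, and featureCounts assigned them to genes. The authors deposited raw counts and FPKM values for the same 6 libraries and 41079 gene symbols, and versions, annotation and strand setting are not given in the sources used here. Each library was counted as 1 replicate, with groups taken from the labels. The main test was that of edgeR 4.0.16 in R 4.3.3 (filterByExpr, TMM, glmQLFit, glmQLFTest) over 14618 genes, and p-values were Benjamini-Hochberg adjusted with a threshold of 0.05. The standard error was the size of the log2 fold change divided by the square root of F. The common dispersion was 0.0164, a coefficient of variation between replicates of 0.128. Counts of 17 to 39 limit Smad6 in control libraries.

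Alternatives were RLE factors, library size alone, DESeq2 1.42.0, other filters on low counts, the replicate number as a block, leaving out each library, and limma 3.58.1 on log2(FPKM + 1) or log2(FPKM + 0.1). The fits of edgeR, DESeq2 and limma were tried on simulated counts. The genes changed there were far fewer than those called here, with rises and falls equally likely, so the choice of scaling was not probed. The ratios, shares, permutation tests and search for like profiles were not simulated. Gene positions and exon overlaps are from GENCODE M39. The 10 genes and the lists were chosen with earlier results of these data known. Of each pathway list, the genes named were the 2 highest and 2 lowest by log2 fold change, or each gene of the list of 3. From the list of textbook target genes, 1 gene was left out after the analysis and is not reported here, so the counts and median of that list are over the rest. The genes Cspg4, Pdgfra, Pdgfrb, Rgs5, Kcnj8 and Cep95 were named after their values were seen.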

Additional observations from a re-analysis of the deposited data

How the results depend on the processing

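Pmepa1, Smad6, Smad7, Ski, Skil and Smad3 stayed on the same side of 0 and below the threshold of 0.05 in each alternative run. Leaving out 1 library gave log2 fold changes of 4.50 to 4.61 for Pmepa1, 2.97 to 3.44 for Smad6, 2.48 to 2.65 for Smad7, 1.66 to 1.69 for Ski, 1.89 to 2.18 for Skil, 0.44 to 0.49 for Smurf1, 0.22 to 0.32 for Smurf2, -0.14 to 0.02 for Smad4, -0.29 to -0.19 for Smad2 and -0.62 to -0.48 for Smad3. Smad4 changed sign, with 0.0026 without control replicate 1, 0.016 without optimized replicate 2 and 0.015 without optimized replicate 3. Smad2 passed the threshold when scaled by library size alone (-0.37) and by limma above a minimum mean FPKM of 1 (-0.28), so that 2 of the 10 genes were called lower there, as they were without optimized replicate 2, where leaving out 1 library gave 1 to 2 such calls. Smurf1 lost its call with limma on log2(FPKM + 1) (0.30) and on log2(FPKM + 0.1) (0.33). Smurf2 lost it with library size alone (0.15), with no filter on low counts (0.26), and with limma on log2(FPKM + 1), with or without the minimum FPKM (0.12), and on log2(FPKM + 0.1) (0.14). The causes were not tested.

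Over all genes, limma called 1307, 1312 and 1176 genes higher with log2(FPKM + 1), log2(FPKM + 0.1) and the minimum FPKM, against 2142 with edgeR. Calls in the list of ligands, latency proteins and receptors numbered 8 with edgeR, 5 with each of the 3 limma settings and 5 to 8 when 1 library was left out. Those in the list of ubiquitin ligases and deubiquitinases numbered 2 under library size alone and under limma with the minimum FPKM, 0 with limma on log2(FPKM + 1) and on log2(FPKM + 0.1), and 0 to 2 when 1 library was left out. The inhibitory share rose by 25.9 percentage points with counts not divided by length, an alternative chosen after the data were seen, and all 6 ratios kept their direction in every alternative, though leaving out 1 library gave 0.21 to 0.50 for Skil against Ski (0.38 with all 6) and -0.93 to -0.41 for Smad7 against Smad6 (-0.70 with all 6) on the log2 scale.

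Whether the replicate numbers pair the libraries was not settled. Correlations between the deviations of same-numbered libraries were 0.27, -0.01 and 0.18. The libraries numbered 1 had the highest correlation of any control and optimized pair, while optimized library 2 correlated best with control library 3 (0.19). With the replicate block, 4924 genes were called in place of 4360, and no call of the 10 genes changed, with 7 higher and 1 lower. Of the genes named from the pathway lists, Hdac1 passed the threshold with the block (-0.25, adjusted p = 0.048, edgeR).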
